A study of Mus musculus with 12 samples.

Results

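The comparison set extracellular vesicles (EVs, membrane particles that cells release and that carry small RNAs) of adipose tissue against hippocampus, the brain region best known for memory, in mice on a high-fat diet (HFD). Its members are the 852 miRNAs that both deposited count sets list and that are filled in for the HFD hippocampus libraries, of 1394 names in either set. The HFD EV group has 3 libraries and the HFD hippocampus group has 3. All animals were wild-type C57BL/6J males fed for 12 weeks, and the EVs are labelled only as adipose, with no depot, cell type or vesicle size given. Chow EV and chow hippocampus groups of 3 libraries each come from the same strain, sex, genotype and feeding time, and they serve here only to ask whether the EV to hippocampus difference changed with diet. Whether the libraries of a group stem from different animals is not given in the labels, and the p-values below therefore speak only to the spread among these libraries, which may be technical.

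A miRNA is cut from a hairpin whose stem yields 2 arms, named 5p and 3p. In most hairpins 1 arm is kept in the silencing complex as the guide and the other is degraded. The seed, bases 2 to 8 of the mature miRNA, pairs with target messages, so miRNAs that share a seed share most predicted targets. Some miRNAs mark a cell lineage, such as miR-124 in neurons, miR-219 in oligodendrocytes and miR-122 in hepatocytes, whereas let-7 and miR-26 are made in most tissues. Adipose tissue holds adipocytes, fibroblasts, vessels and leukocytes, all of which release EVs, and the EV fraction of a tissue also takes up particles that arrive with blood.

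The miRNAs that lead each sample type, and the related miRNAs with which they are compared, have the following mature sequences (RefSeq, GRCm38.p6; 5′ to 3′, seed in capitals). Those below were more abundant in EVs, except miR-148b-3p, which is shown because it shares the seed of miR-148a-3p and miR-152-3p and was not called. The miR-10 arms share a seed as well.
miR-148a-3p: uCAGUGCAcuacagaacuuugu
miR-152-3p: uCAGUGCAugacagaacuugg
miR-148b-3p: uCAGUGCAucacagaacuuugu
miR-10a-5p: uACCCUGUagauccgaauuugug
miR-10b-5p: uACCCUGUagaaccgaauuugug
miR-21a-5p: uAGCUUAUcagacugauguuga
let-7f-5p: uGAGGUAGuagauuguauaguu

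The next set led the hippocampus libraries or, in the case of miR-384-5p, had counts there alone; miR-30a-5p is shown beside it for its seed. miR-384-5p carries the seed GUAAACA of miR-30a-5p, yet it had counts in hippocampus alone, whereas miR-30a-5p was abundant in both sample types.
miR-9-5p: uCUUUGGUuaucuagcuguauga
miR-128-3p: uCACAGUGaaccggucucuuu
miR-218-5p: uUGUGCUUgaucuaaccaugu
miR-127-3p: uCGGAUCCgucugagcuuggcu
miR-384-5p: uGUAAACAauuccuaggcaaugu
miR-30a-5p: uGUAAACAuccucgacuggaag

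The following pairs are shown because their counts were nearly the same in every library although their sequences are not. In each, an arm of a hairpin on one strand is nearly the reverse complement of an arm of a hairpin on the other strand of the same locus. The partner of miR-9b-3p is miR-9-5p, given before.
miR-9b-3p: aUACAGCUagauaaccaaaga
miR-142a-3p: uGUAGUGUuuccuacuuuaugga
miR-142b: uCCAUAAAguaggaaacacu
miR-24-3p: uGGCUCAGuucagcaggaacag
miR-3074-5p: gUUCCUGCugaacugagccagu
Counts within 5% of each other in all 6 libraries, at a mean of at least 5 CPM (counts scaled to a library of 1e+06), were found in 14 pairs of miRNAs. Both sequences were at hand for 7 of these pairs, and all 7 lie on opposite strands at one place, with 19 to 21 bases in a row shared with the reverse complement and at most 4 shared in the same sense. Keeping 1 name per set of repeats would remove 13 names that hold 1.70% of EV counts and 22.2% of hippocampus counts, the hippocampus share being almost all miR-9b-3p. Values of miR-9b-3p, miR-142b, miR-1b-5p, miR-126b-3p, miR-129b-3p, miR-122b-3p, miR-486a-5p, miR-486b-3p, miR-374c-3p, miR-3074-5p, miR-3074-2-3p, miR-467b-5p and miR-338-3p are therefore not separate measurements from those of their partners.

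The HFD EV libraries held 5941955, 1825488 and 1969840 counts and the HFD hippocampus libraries 12874600, 11143775 and 12384458. Depth, the count set and the sample type go together, so their parts cannot be told apart. The 852 shared names took at least 99.9% of the counts of each EV library and 99.9% of those of each hippocampus library. A floor of 3 counts corresponds to between 0.505 and 1.64 CPM in a HFD EV library and between 0.233 and 0.269 CPM in a HFD hippocampus library. Replicates of a group differed by far more than sampling noise (chi-square per degree of freedom between 89.8 and 497), so each library was counted as 1 replicate. Of the 852 names, 40 had no count in EVs alone, 37 had none in hippocampus alone and 6 had none in either.

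Libraries within a group were not equal. HFD hippocampus library 2 held more of miR-199a, miR-214, miR-200, miR-141, miR-182, miR-183 and miR-96 than the other hippocampus libraries, for example 72.1 CPM of miR-182-5p in library 2 against 5.12 and 6.77 CPM in libraries 1 and 3. HFD EV library 1 held less of the gut and kidney miR-215, miR-194 and miR-192, of the muscle miR-1a, miR-133a and miR-206, of red cell miRNAs and of an X-linked testis cluster than EV libraries 2 and 3. The labelled tissues were checked against markers. miR-124-3p, the defining neuronal miRNA, stood at 6225, 4948 and 4669 CPM in hippocampus libraries. No miRNA of the lists used here is made by adipocytes alone, so the adipose label of the EVs could be checked only against miRNAs known to take part in adipocyte differentiation, which are described further on.

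Adipose EVs and hippocampus differed in most of their miRNAs. Of 555 miRNAs with enough counts to test, edgeR's quasi-likelihood test called 453 (81.6%) at a Benjamini-Hochberg adjusted p under 0.05, with 205 (36.9%) higher and 248 (44.7%) lower in HFD EVs than in HFD hippocampus. In 465 of the 555 (83.8%) the 3 EV libraries did not overlap with the 3 hippocampus libraries. Of the 555, 55 had 0 to 3 counts over 1 of the groups. These passed the count filter through the other group, so their direction was largely fixed by the filter. Asking for a change larger than a log2 fold change of 1 left 396 (71.4%), 179 higher and 217 lower. The median log2 fold change over all tested miRNAs was -0.19, and -0.32 with libraries scaled by their totals instead of TMM (trimmed mean of M values). It was 0.38 with libraries thinned to the smallest total and scaled by TMM, and -0.40 with thinned libraries scaled by their totals. Fold changes below are relative to the TMM scale, on which a share of called miRNAs in a group means little unless it departs from 36.9% higher and 44.7% lower. Without HFD EV library 1 and HFD hippocampus library 2, a setting chosen after the data were seen, 189 were higher and 232 lower.

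**Figure D1:**
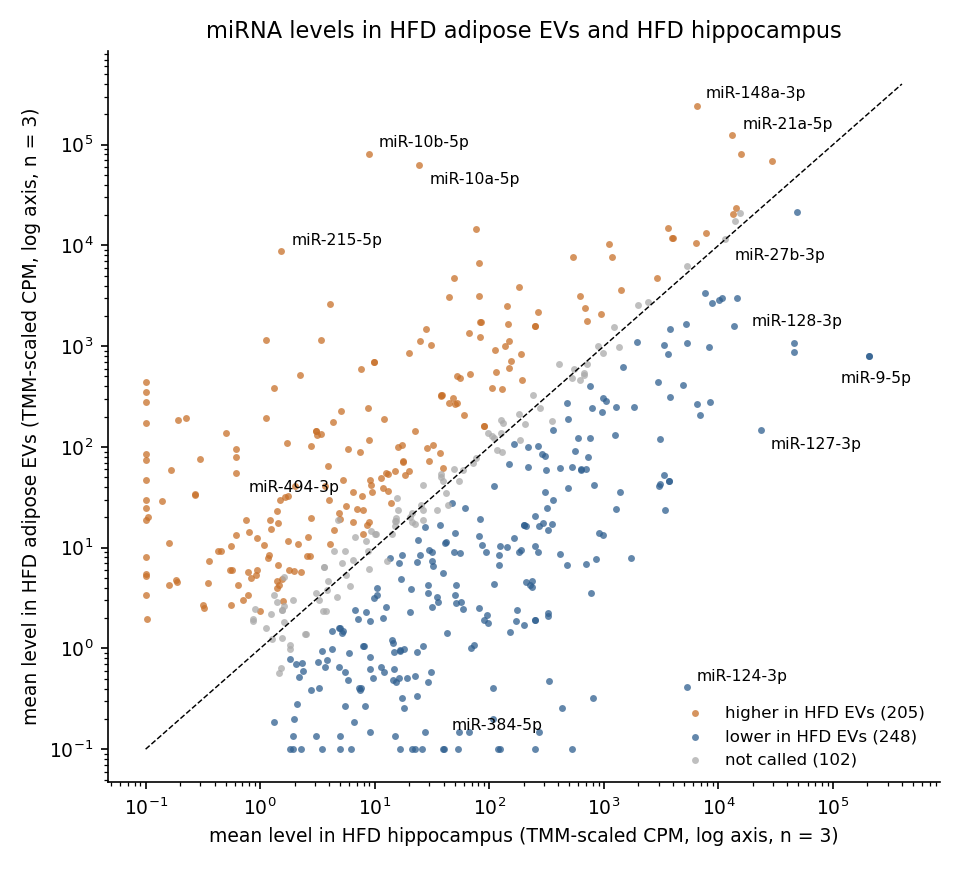
Mean level of each of 555 tested miRNAs in HFD adipose EVs (vertical axis, TMM-scaled CPM) against HFD hippocampus (horizontal axis, TMM-scaled CPM), both on log axes, with 3 libraries per mean; means under 0.1 CPM are drawn at 0.1, and the dashed line marks equal levels. Orange points (205) were called higher and blue points (248) lower in EVs, grey points (102) were not called, and miR-10b-5p and miR-124-3p lie far to opposite sides of the line.

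In both sample types a few miRNA names took most of the counts. In every library of the 6, the 4 most abundant names held at least 50% of counts. In hippocampus these 4 include both miR-9-5p and its repeat miR-9b-3p, which are not separate measurements. EV libraries needed 29, 34 and 32 miRNAs to reach 90% of counts, against 40, 42 and 42 in hippocampus libraries. The 10 most abundant of a library held between 71.4% and 73.2% of counts in EVs and between 66.3% and 67.6% in hippocampus. All figures of this paragraph count repeated names under each name. Such repeats hold 22.2% of hippocampus counts but 1.70% of EV counts. The figures therefore cannot tell which sample type is more concentrated, and they were not computed with repeats left out.

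miR-148a-3p, which is abundant in liver and adipose tissue and is known to promote adipocyte differentiation, led every EV library. It stood at 250874, 245284 and 232117 CPM in HFD EV libraries 1 to 3, against 6193, 8085 and 5212 CPM in HFD hippocampus libraries. Every EV library lay above every hippocampus library, at a log2 fold change of 5.22 (SE 0.25; edgeR's quasi-likelihood test, adjusted p = 5.51e-07). It took 21.02%, 23.8% and 26.4% of the counts of the EV libraries, against 0.583%, 0.854% and 0.566% of those of the hippocampus libraries. Its hairpin lies between genes at chr6:51269812-51269910 on the minus strand.

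miR-21a-5p, a widely made miRNA that is raised in inflamed and fibrotic tissue, came next in EVs. Its levels were 146744, 129058 and 97768 CPM in EVs and 12869.8, 14417 and 12329 CPM in hippocampus, without overlap (log2 fold change 3.24, SE 0.23, adjusted p = 2.80e-06). let-7f-5p, a member of a family that restrains growth, had 97441, 79369 and 64251 CPM in EVs and 16328, 15808 and 14699.8 CPM in hippocampus (log2 fold change 2.36, SE 0.22, adjusted p = 1.18e-05). Both were abundant in either sample type, and every EV library lay above every hippocampus library.

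The miR-10 pair was abundant in EVs and near the bottom of the range in hippocampus. miR-10b-5p, encoded in an intron shared by Hoxd3 and Hoxd4 at chr2:74726070-74726137, had 112269, 78742 and 53713 CPM in EVs and 3.72, 16.3 and 6.47 CPM in hippocampus (log2 fold change 13.17, SE 0.84, adjusted p = 3.05e-06). miR-10a-5p, encoded between Hox genes at chr11:96317165-96317274, had 86771, 57183 and 44534 CPM in EVs and 24.4, 24.2 and 24.3 CPM in hippocampus (log2 fold change 11.34, SE 0.40, adjusted p = 5.14e-07). Hox genes pattern the trunk and are silent in forebrain, and all 7 tested miRNAs of these clusters were higher in EVs, at a median log2 fold change of 11.34 against -0.19 over all tested. Of the 7, 2 had 0 to 3 counts over the hippocampus libraries and passed the count filter through the EV libraries. The group as a whole took 16.8, 13.3 and 11.3 percent of EV libraries and 0.00272, 0.00433 and 0.00341 percent of hippocampus libraries. miR-10b-3p, the other arm, had 505, 294 and 246 CPM in EVs and no count in any hippocampus library, which makes it at least 4470-fold higher in EVs (3 counts over the group; counting error only). miR-10a-3p had 4346 counts in EVs and 3 in hippocampus, a ratio of 5416 after division by library totals (exact 95% interval 1852 to 26272, counting error only).

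**Figure D2:**
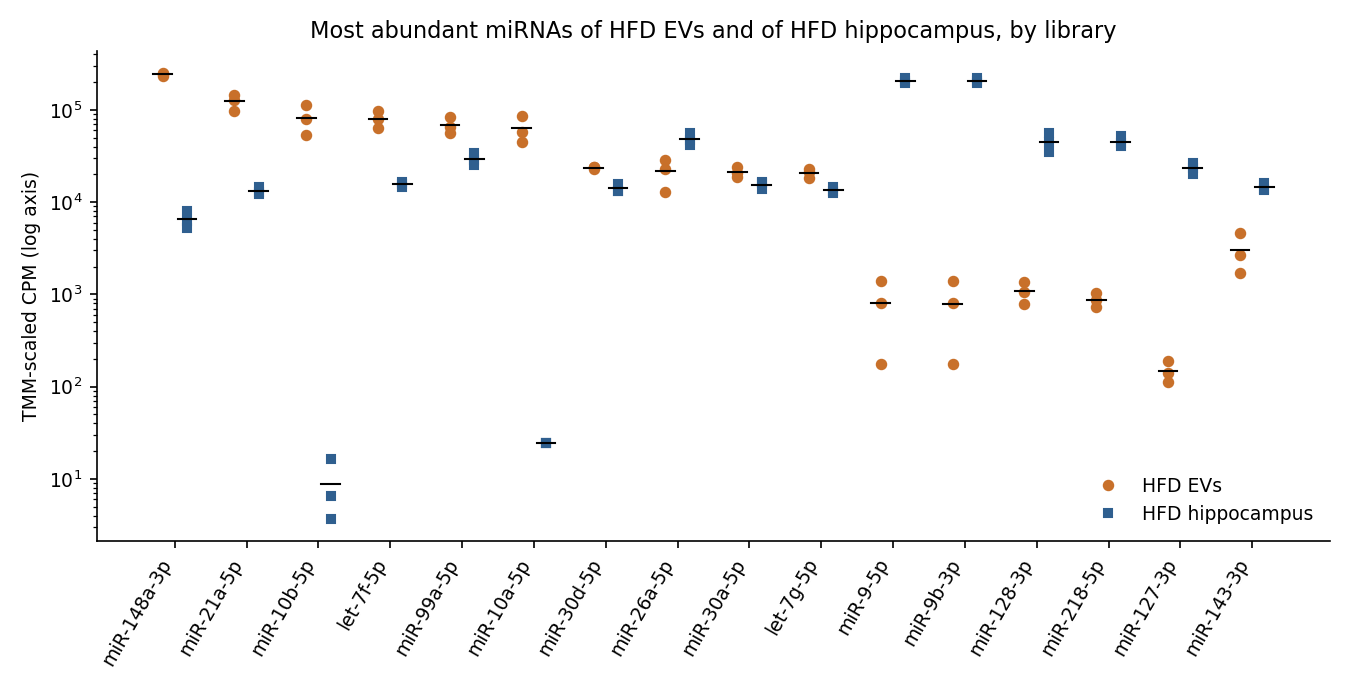
Level of the 10 most abundant miRNAs of HFD EVs and the 6 further ones among the 10 most abundant of HFD hippocampus (TMM-scaled CPM, log axis), 1 point per library (orange circles, HFD EVs; blue squares, HFD hippocampus) with the mean as a bar. miR-10b-5p and miR-10a-5p are far lower in hippocampus, miR-9-5p, miR-9b-3p and miR-127-3p are far lower in EVs, and miR-30a-5p lies close together in both.

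miR-99a-5p, miR-26a-5p, let-7f-5p and miR-30a-5p were among the 10 most abundant of both sample types. miR-99a-5p had 84177, 56572 and 65466 CPM in EVs and 34201, 25436 and 28451 CPM in hippocampus and was called higher (log2 fold change 1.23, adjusted p = 8.47e-04). miR-26a-5p, broadly made and also known from adipocyte differentiation, went the other way, with 28581, 22942 and 12954 CPM in EVs and 56322, 41314 and 47242 CPM in hippocampus (log2 fold change -1.17, adjusted p = 0.00585). The highest EV value of miR-26a-5p stayed below the lowest hippocampus value.

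Of the miRNAs that were not called and had a log2 fold change within 0.5 of 0, the 6 most abundant in both sample types are described here. miR-27b-3p, which restrains adipocyte differentiation, had 13589, 9997 and 10860.1 CPM in EVs and 13552, 10510.1 and 9976 CPM in hippocampus (log2 fold change 0.02, SE 0.22, adjusted p = 0.946). let-7i-5p had 21453, 17721 and 13384 CPM in EVs and 14429, 13628 and 13778 CPM in hippocampus, and the groups overlapped. The others were miR-340-5p, miR-22-3p, let-7b-5p and miR-30a-5p, with log2 fold changes of 0.18, 0.25, 0.39 and 0.45. None of these 6 was called by edgeR on the 6 libraries, which does not show that their levels were equal. The signs of all but miR-30a-5p turned under at least 1 other setting.

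miR-9-5p, made in neural progenitors, neurons and glia, was the most abundant miRNA of hippocampus. It stood at 810.2, 1412 and 174 CPM in HFD EVs and 221845, 205579.8 and 195577 CPM in HFD hippocampus (log2 fold change -8.02, SE 0.82, adjusted p = 4.07e-05). The EV libraries differed among themselves, library 3 having the lowest and library 2 the highest value, and all lay far below hippocampus. The other arm, miR-9-3p, had 986, 936 and 559.8 CPM in EVs and 3418, 3613 and 3806 CPM in hippocampus, a smaller difference (log2 fold change -2.13, SE 0.26, adjusted p = 7.37e-05). miR-9b-5p did not pass, with a log2 fold change of 0.28 (adjusted p = 0.629). Hairpins at chr3:88215598-88215686, chr13:83738814-83738885 and chr7:79505264-79505353, all in lincRNAs on the plus strand, give the miR-9 arms, and counts do not tell them apart. Of the 7 tested members of the neural lineage list 0 were higher and 6 lower, at a median log2 fold change of -3.97. With miR-9b-3p, the repeat of miR-9-5p, left out, 6 members remain, of which 5 were lower and 0 higher (median -3.05), and these took 0.178, 0.256 and 0.0924 percent of counts in EV libraries and 21.3, 22.2 and 21.7 percent in hippocampus libraries. The library totals of these shares still hold miR-9b-3p. The median of the 7 was -5.01 without HFD EV library 1 and -4.92, with 5 lower, without both libraries that stand apart.

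miRNAs of neurons were lower in EVs throughout: of 23 tested members 0 were higher and 23 lower, with a median log2 fold change of -5.71 (-5.70 with members at 0 to 3 counts set to their bound or ratio). Of the 23, 5 had 0 to 3 counts over the EV libraries and passed the count filter through the hippocampus libraries. miR-124-3p stood at 0.803, 0 and 0.446 CPM in EVs and 6225, 4948 and 4669 CPM in hippocampus (log2 fold change -13.23, adjusted p = 5.14e-07). The EV libraries thus held at most a few reads of it. miR-128-3p, encoded in introns of R3hdm1 and Arpp21 and among the most abundant brain miRNAs, had 1378, 1057 and 789 CPM in EVs and 56594, 35331 and 44307 CPM in hippocampus (log2 fold change -5.40, adjusted p = 1.18e-06). miR-218-5p, whose hairpins include 1 in an intron of Slit3, had 859, 726 and 1024 CPM in EVs and 52524, 43377 and 40090.3 CPM in hippocampus (log2 fold change -5.70, adjusted p = 5.20e-07). Both were readily measured in EVs, unlike miR-124-3p.

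Several neuronal miRNAs were at or near 0 in EVs. miR-384-5p, known from forebrain neurons, had no count in any EV library and 269, 233 and 247 CPM in hippocampus, at least 831-fold lower in EVs (3 counts over the group). miR-137-3p, a regulator of neuronal maturation, had 1 count over the EV libraries and 19773 over the hippocampus libraries, a ratio of 5289 (exact 95% interval 949 to 208916). miR-873a-5p had 1 count in EVs and 10034 in hippocampus, a ratio of 2684 (exact 95% interval 482 to 106021). miR-488-3p, encoded in an intron of Astn1, stood at 0.402, 0.564 and 0.446 CPM in EVs and 323, 363 and 301 CPM in hippocampus. The neuron list as a whole took 0.209, 0.195 and 0.229 percent of EV counts and 11.9, 9.87 and 10.7 percent of hippocampus counts, and its EV share was mostly miR-128-3p and miR-218-5p. Further miRNAs with the largest differences that belong to no list were miR-7b-5p (2.81, 8.47 and 12.5 CPM in EVs and 1758, 1780.0 and 1689 CPM in hippocampus), miR-344-3p (4.42, 4.52 and 1.78 and 798, 768 and 768 CPM) and miR-344b-3p. miR-490-3p had no count in EVs and 54.7, 50.9 and 53.9 CPM in hippocampus, at least 177-fold lower in EVs.

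Glial and choroid plexus miRNAs were followed as well. Oligodendrocyte miRNAs, which promote myelination, were lower in 6 of 7 tested members and higher in 0. Of the 7, 3 had 0 to 3 counts over the EV libraries. miR-219a-5p and miR-219b-3p overlap on opposite strands at one place on chromosome 2. Their log2 fold changes without both libraries that stand apart were -12.58 and -12.57, so they may not be separate measurements. The median log2 fold change of the oligodendrocyte list, -7.41, rests on few EV counts. It was -11.73 without HFD EV library 1 and -11.59 without both libraries that stand apart. miR-338-3p, encoded in an intron of Aatk and not separable here from miR-3065-5p on the opposite strand, had 1.61, 2.82 and 1.34 CPM in EVs and 297, 231 and 224 CPM in hippocampus (log2 fold change -7.09, adjusted p = 7.54e-07). miR-219a-2-3p had 3 counts in EVs and 29925 in hippocampus, a ratio of 2668 (exact 95% interval 913 to 12939). The list took 0.00185, 0.00159 and 0.00193 percent of EV libraries and 0.159, 0.165 and 0.163 percent of hippocampus libraries. Of the choroid plexus and ciliated cell list, 4 of 8 tested members were higher and 3 lower. miR-1298-5p, a choroid plexus miRNA, had the largest difference of the list, with 2 counts in EVs and 16110 in hippocampus, a ratio of 2155 (exact 95% interval 596 to 17793). The ciliated cell miRNA miR-34c-5p was lower at 456, 658 and 766 CPM in EVs and 1356, 1755 and 1308 CPM in hippocampus, whereas miR-34b-3p was higher at 62.9, 79.02 and 73.1 and 17.5, 18.4 and 16.7 CPM. The call of miR-34c-5p ended when libraries were thinned to the smallest total.

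Vessel wall markers split. Of the 4 tested arms of the endothelial miR-126, encoded within Egfl7, 0 were higher and 3 lower, and miR-126b-3p repeats miR-126a-5p. miR-126a-3p had 1209.6, 1119 and 919 CPM in EVs and 5220.0, 5293 and 5297 CPM in hippocampus (log2 fold change -2.28, SE 0.21, adjusted p = 9.86e-06). By contrast, 7 of 9 tested miRNAs of smooth muscle and fibroblasts were higher in EVs and 1 was lower, at a median of 4.34 (5.39 without HFD hippocampus library 2 and 3.71 without HFD hippocampus library 3). The fibroblast miR-199a-3p, from the Dnm3os transcript, had 2985, 2634 and 3777 CPM in EVs and 30.4, 180.1 and 32.6 CPM in hippocampus, where library 2 stood above the other 2 (log2 fold change 5.27, SE 0.79, adjusted p = 3.72e-04). The call of its partner miR-199a-5p (log2 fold change 3.27) ended without HFD EV library 3 (adjusted p = 0.0662). miR-143-3p, an abundant smooth muscle miRNA, was the member that was lower, at 4616, 2671 and 1695 CPM in EVs and 13957, 16228 and 13629 CPM in hippocampus (log2 fold change -2.29, adjusted p = 3.05e-04). Its weight brings the summed share of this list to 0.817, 0.700 and 0.822 percent in EVs and 1.33, 1.77 and 1.504 percent in hippocampus, opposite to the median of its members. In bulk RNA, fewer cells of a type and less RNA per cell cannot be told apart, and in EVs the number of vesicles per cell adds to this.

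The largest block of lower miRNAs lies on chromosome 12. The Dlk1-Dio3 region, an imprinted domain whose miRNAs are made from the maternal chromosome and are abundant in brain, had 73 of 74 tested members lower and 1 higher in EVs, at a median log2 fold change of -4.42 (-4.58 with members at 0 to 3 counts set to their bound or ratio, and -5.06 without HFD EV library 1). Of the 74, 13 had 0 to 3 counts over the EV libraries and passed the count filter through the hippocampus libraries. It took 0.233, 0.199 and 0.205 percent of EV counts and 7.51, 7.56 and 7.34 percent of hippocampus counts. miR-127-3p, transcribed opposite to the retrotransposon-derived gene Rtl1 at chr12:109592846-109592915, had 188, 139 and 113 CPM in EVs and 26753, 23339.9 and 19977 CPM in hippocampus (log2 fold change -7.31, SE 0.32, adjusted p = 5.20e-07). miR-434-5p had 342, 282 and 221 CPM in EVs and 9588, 7916 and 7761 CPM in hippocampus, and miR-381-3p had 321, 257 and 216 and 6207, 6908 and 6233 CPM. These members stayed at a small fraction of their hippocampal level in every EV library, and the libraries of a group lay close together. The member that was higher in EVs was miR-494-3p, at 27.9, 18.6 and 26.3 CPM in EVs and 5.12, 6.54 and 9.44 CPM in hippocampus (log2 fold change 1.79, SE 0.33, adjusted p = 8.92e-04); it was singled out after its values were seen. Tested miRNAs with a matched sequence were also placed by chromosome, each at its first listed hairpin. Of the 93 on chromosome 12, 83 were lower and 9 higher. On the X chromosome the balance was the other way, with 32 higher, 6 lower and 13 not called. The X count includes members of the testis and epididymis cluster described further on, so it is not separate from that list.

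miRNAs known from adipocyte differentiation and metabolism were mixed, with 8 of 14 tested members higher and 4 lower (median 1.32). miR-378a-3p, which is hosted by Ppargc1b and rises as fat cells differentiate, had 8396, 11015 and 11551 CPM in EVs and 1069.9, 1131 and 1153 CPM in hippocampus (log2 fold change 3.21, adjusted p = 2.39e-06). miR-335-5p, hosted by the imprinted gene Mest that is induced as adipocytes expand, had 1281, 1254 and 1490.0 CPM in EVs and 66.2, 70.8 and 61.7 CPM in hippocampus (log2 fold change 4.34, adjusted p = 8.40e-07). Both separated the sample types without overlap. miR-27a-3p was higher (log2 fold change 3.82), whereas miR-27b-3p with almost the same sequence was not called. miR-103-3p and miR-107-3p, which lower insulin sensitivity in mouse liver and fat, were lower in EVs, miR-103-3p at 1002, 1092 and 976 CPM in EVs and 3355, 3578 and 3196 CPM in hippocampus (log2 fold change -1.72, adjusted p = 4.10e-05). The list took 2.85, 2.94 and 3.73 percent of EV counts and 1.82, 1.73 and 1.68 percent of hippocampus counts.

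miRNAs of immune cells were higher in EVs in 12 of 12 tested members, at a median log2 fold change of 4.64, and took 2.91, 3.34 and 1.79 percent of EV counts against 0.155, 0.166 and 0.177 percent of hippocampus counts. miR-146a-5p, induced by NF-kB and feeding back on its signalling, had 18333, 16547 and 8581 CPM in EVs and 77.1, 81.3 and 73.1 CPM in hippocampus (log2 fold change 7.55, SE 0.38, adjusted p = 6.24e-07). The related miR-146b-5p, with the same seed, had 10088, 8851 and 4285 CPM in EVs and 1236, 1099 and 1180.5 CPM in hippocampus (log2 fold change 2.72, adjusted p = 6.26e-05). Both were highest in EV library 1 and lowest in EV library 3, and neither overlapped between the groups.

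The leukocyte miR-142a-5p had 3291, 4659 and 1272 CPM in EVs and 40.7, 54.02 and 37.5 CPM in hippocampus (log2 fold change 6.12, adjusted p = 1.02e-05). miR-223-3p, the main myeloid miRNA, had 249, 178 and 159 CPM in EVs and 0.908, 1.44 and 1.04 CPM in hippocampus (log2 fold change 7.42, adjusted p = 6.83e-07). miR-155-5p, which rises in activated macrophages and lymphocytes, had 450.5, 894 and 223 CPM in EVs and 1.73, 2.63 and 2.305 CPM in hippocampus (log2 fold change 7.87, adjusted p = 6.11e-06). EV library 2 held the most miR-142a-5p and miR-155-5p and EV library 3 the least, and no library crossed into the other group. Of the lymphocyte miRNAs, miR-342-3p had 790.5, 748 and 606 CPM in EVs and 138, 169 and 156 CPM in hippocampus, and miR-150-5p had 450.1, 1148 and 206 and 135, 149.8 and 163 CPM. Without both libraries that stand apart 11 of the 12 were still called higher.

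Epithelial miRNAs were another group without exception, 15 of 15 tested members being higher in EVs (median 5.91, and 6.12 with members at 0 to 3 counts set to their ratio). Of the 15, 1 had 0 to 3 counts over the hippocampus libraries and passed the count filter through the EV libraries. The median was 7.24 without HFD hippocampus library 2, 5.21 without HFD hippocampus library 3 and 7.10 without both libraries that stand apart. miR-200a-3p, which with its relatives keeps cells epithelial, had 7073, 6173 and 6817 CPM in EVs and 37.5, 162 and 44.6 CPM in hippocampus (log2 fold change 6.36, SE 0.67, adjusted p = 4.59e-05). miR-200c-3p had 2731, 2982 and 2155 CPM in EVs and 1.403, 8.15 and 2.75 CPM in hippocampus (log2 fold change 9.32, adjusted p = 9.56e-06). miR-205-5p, of stratified epithelium, had 161, 165 and 87.8 CPM in EVs and 0.165, 0.595 and 0.744 CPM in hippocampus (log2 fold change 8.05, adjusted p = 2.51e-06). HFD hippocampus library 2 was the highest hippocampus library for miR-200a-3p and miR-200c-3p. The list's share was 1.91, 2.01 and 2.03 percent in EVs and 0.0176, 0.0556 and 0.0177 percent in hippocampus, so EV libraries resembled each other here while 1 hippocampus library stood out. The source of these miRNAs in the EVs was not tested.

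Some other lists of cells and organs were higher in EVs but varied between EV libraries. miR-215-5p, a miRNA of gut and kidney epithelium, had 1243, 12559.8 and 12687 CPM in EVs and 1.403, 1.36 and 1.78 CPM in hippocampus, the log2 fold change being 12.49 (SE 1.13, adjusted p = 1.98e-05). Its cluster neighbour miR-194-5p followed it, at 362, 2434 and 2207 CPM in EVs and 126, 165 and 144 CPM in hippocampus. EV library 1 held far less miR-215-5p and miR-194-5p than EV libraries 2 and 3, though more than any hippocampus library. The hepatocyte miR-122-5p was more even, at 174, 125 and 132 CPM in EVs and 3.302, 2.63 and 3.27 CPM in hippocampus (log2 fold change 5.54, adjusted p = 8.97e-07). All 5 tested members of the gut, kidney and liver list were higher. Of the 5, miR-215-3p had 479 counts over the EV libraries and 2 over the hippocampus libraries. It passed the count filter through the EV libraries, so its direction was largely fixed by the filter. miR-192-5p overlapped between groups and lost its call under 7 other settings. Among these were edgeR fits without HFD EV library 2 (adjusted p = 0.0716), without HFD EV library 3 (0.0634) and without any 1 of the hippocampus libraries (0.101 to 0.110).

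Of the muscle list 6 of 7 tested members were higher and 0 lower, or 5 of 6 with miR-1b-5p, the repeat of miR-1a-3p, left out. miR-1a-3p had 189, 1443 and 3171 CPM in EVs and 197, 354 and 194 CPM in hippocampus, so EV library 1 lay just below all hippocampus libraries and EV libraries 2 and 3 above them. Its log2 fold change of 2.69 (SE 0.85, adjusted p = 0.0188) lost its call without HFD EV library 3 (1.53, adjusted p = 0.187). It also lost it without any 1 of the hippocampus libraries (log2 fold change 2.61 to 3.13, adjusted p between 0.0911 and 0.0982), with replicate numbers as a block (2.01, adjusted p = 0.156), with limma-voom (1.89, adjusted p = 0.0912) and with no filter (2.40, adjusted p = 0.121). miR-206-3p, a skeletal muscle miRNA, had 15.3, 119 and 271 CPM in EVs and 3.798, 4.67 and 1.78 CPM in hippocampus. Red cell miRNAs were higher in 5 of 6 tested members and lower in 0, but miR-486a-3p, miR-486a-5p and miR-486b-3p have nearly the same counts, and with 1 of these names kept 3 of 4 were higher. The red cell miR-451a had 509.7, 1846 and 1322 CPM in EVs and 73.8, 123 and 52.3 CPM in hippocampus (log2 fold change 3.88, adjusted p = 2.18e-04). With repeats kept once, the red cell list took 0.0639, 0.230 and 0.192 percent of EV counts and 0.0120, 0.0184 and 0.00898 percent of hippocampus counts, and the muscle list 0.0199, 0.170 and 0.416 percent and 0.0209, 0.0406 and 0.0238 percent. The library totals of these shares still hold all repeats. The part of blood and muscle in the other EV results was not tested.

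A cluster on the X chromosome known from testis and epididymis was higher in 11 of 11 tested members (median 8.73, and 8.40 with members at 0 to 3 counts set to their bound or ratio). Of the 11, 7 had 0 to 3 counts over the hippocampus libraries. They passed the count filter through the EV libraries, so their direction was largely fixed in advance. miR-881-3p had 459, 1116 and 1867 CPM in EVs and 2.06, 4.08 and 4.02 CPM in hippocampus (log2 fold change 8.40, SE 0.68, adjusted p = 7.23e-06). miR-465b-5p had 2132 counts in EVs and 3 in hippocampus, a ratio of 2657 (exact 95% interval 908 to 12893). miR-465b-5p, miR-465c-5p and miR-465a-5p share the seed AUUUAGA. EV library 3 held the most and EV library 1 the least of the list, whose share was 0.0735, 0.189 and 0.370 percent in EVs and 0.000249, 0.000646 and 0.000614 percent in hippocampus.

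**Figure D3:**
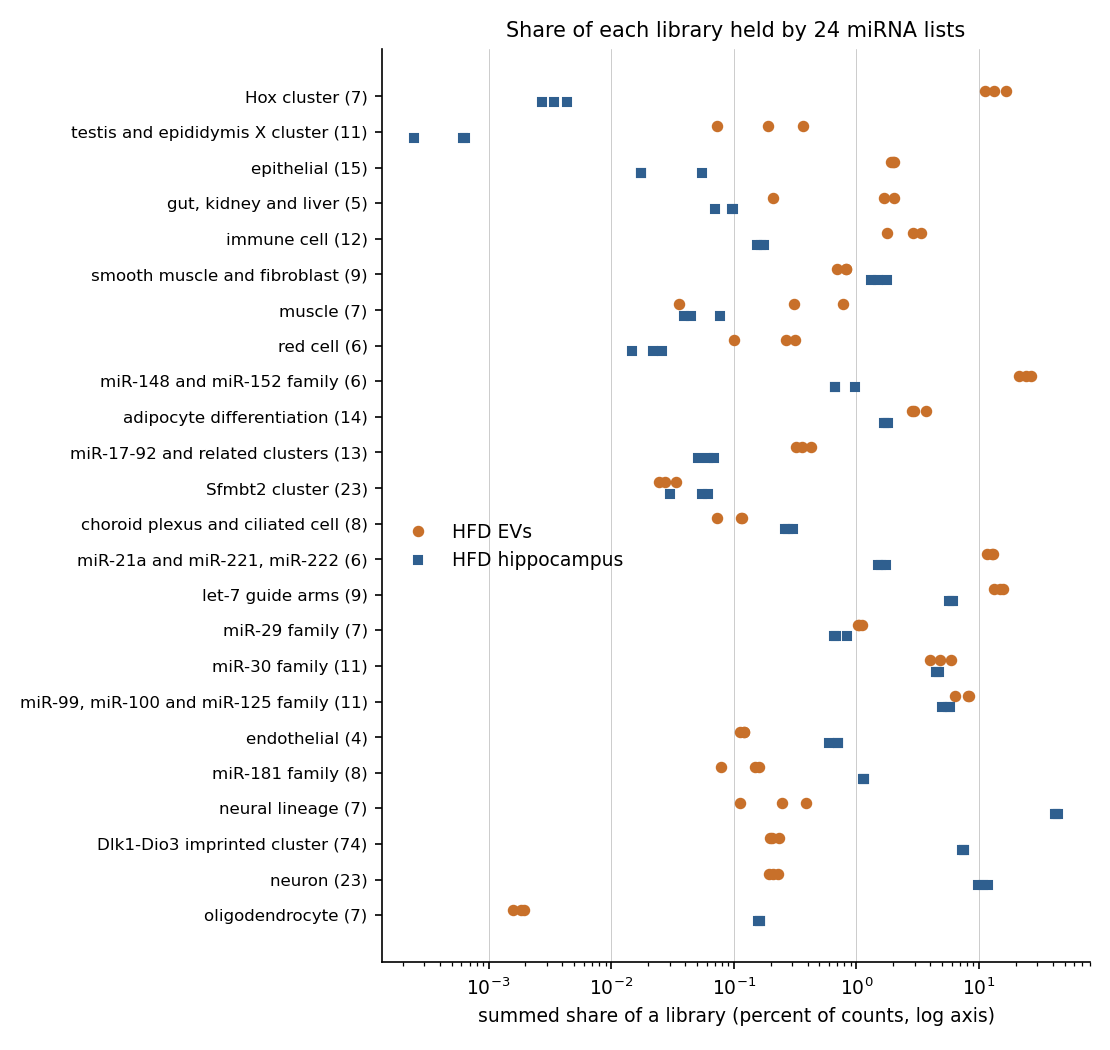
Summed share of counts held by each of 24 miRNA lists (horizontal axis, percent of a library's counts, log axis), 1 point per library (orange circles, HFD EVs; blue squares, HFD hippocampus), with the number of tested members in brackets and lists ordered by median log2 fold change. The Hox, X cluster and epithelial lists are higher in every EV library, the oligodendrocyte, neuron and Dlk1-Dio3 lists are lower in every EV library, and the muscle list has 1 EV library below and 2 above the hippocampus libraries; repeated names are counted under each name, so the neural lineage share holds miR-9-5p and miR-9b-3p.

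Families that are made widely differed member by member. Of the let-7 guide arms, 6 of 9 tested were higher and 1 lower, and without both libraries that stand apart 3 were higher and 1 lower. The member that was lower was let-7e-5p, at 615, 339 and 266 CPM in EVs and 757, 792 and 718 CPM in hippocampus (log2 fold change -0.89, adjusted p = 0.0304). The calls of let-7g-5p (log2 fold change 0.62) and let-7c-5p (log2 fold change 0.75) ended without HFD EV library 1, without HFD EV library 2 and without HFD hippocampus library 3. In the miR-30 family 2 of 11 tested members were higher and 5 lower, miR-30d-5p at 24008, 22914 and 23927 CPM in EVs and 15781, 13260.4 and 13298 CPM in hippocampus on one side, miR-30e-5p at 2362, 2949 and 2651 and 8873, 8838 and 8554 CPM on the other. The call of miR-30d-5p ended without HFD EV library 2 (adjusted p = 0.0720).

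The miR-181 family, abundant in brain and in lymphocytes, was lower in 8 of 8 tested members (median -2.97). miR-181a-5p had 1386, 1102 and 474 CPM in EVs and 9190.0, 7989.6 and 7696 CPM in hippocampus (log2 fold change -3.07, adjusted p = 7.72e-05). Of the miR-17-92 group of growth-linked clusters 8 of 13 were higher and 0 lower, among them miR-25-3p at 2899, 2682 and 1989.6 CPM in EVs and 130.4, 164 and 132 CPM in hippocampus. In the miR-99, miR-100 and miR-125 family 2 of 11 were higher and 6 lower. Its median log2 fold change of -1.17 turned to 0.59 with thinned libraries. Of the 11, miR-100-3p had 2 counts over the EV libraries and 73 over the hippocampus libraries, through which it passed the count filter. miR-99a-5p was higher, whereas miR-100-5p with the same seed was lower, at 3809, 2809 and 2308 CPM in EVs and 12124, 9915 and 9907 CPM in hippocampus (log2 fold change -1.84, adjusted p = 1.15e-04). Of the miR-29 family, which restrains collagen genes, 2 of 7 were higher and 3 lower, and miR-29a-3p (log2 fold change 0.72) lost its call without HFD EV library 1 (0.39), HFD EV library 2 (0.68), HFD hippocampus library 2 (0.54) or HFD hippocampus library 3 (0.55). Of the miR-21a, miR-221 and miR-222 list 3 of 6 were higher and 1 lower, and of the Sfmbt2 cluster 9 of 23 were higher and 5 lower. Of the 23, 3 had 0 to 3 counts over 1 of the groups and passed the count filter through the other group.

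Counts were also summed by seed. Repeated names were left out of these sums but kept in the library totals, where they hold 22.2% of hippocampus and 1.70% of EV counts. Hippocampus shares are therefore lower than they would be with repeats taken out of the totals as well. A mature sequence was matched for 720 of the 852 members and 478 of the 555 tested. The seed CAGUGCA of the miR-148 and miR-152 family took 24.03 ± 2.75% of EV counts and 0.769 ± 0.18% of hippocampus counts (SD, n = 3 each). Within it miR-152-3p was higher, at 2282, 1872 and 2375 CPM in EVs and 288, 296 and 218 CPM in hippocampus (log2 fold change 3.02, adjusted p = 5.36e-06). miR-148b-3p was not called, at 765, 702 and 538 CPM in EVs and 586, 869.6 and 699.9 CPM in hippocampus (log2 fold change -0.10). With libraries thinned to the smallest total it was at 0.57 and was called higher (edgeR's quasi-likelihood test, adjusted p = 0.0279). In the fit of all 12 libraries it was at 0.09. Of the 6 tested arms of this family 4 were higher and 0 lower.

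The let-7 seed GAGGUAG took 14.6 ± 1.16% of EV counts and 5.98 ± 0.205% of hippocampus counts, and the miR-10 seed ACCCUGU took 13.7 ± 2.78% and 0.00342 ± 0.000823%. The seed CUUUGGU of miR-9-5p went the other way, with 0.0749 ± 0.0589% of EV counts and 21.3 ± 0.425% of hippocampus counts. GUAAACA took 2.53 ± 0.64% of EV counts and 3.05 ± 0.151% of hippocampus counts, although miR-384-5p had counts in hippocampus alone. Of the 3 tested miRNAs with the seed AGUGCAA, miR-130a-3p and miR-130b-3p were higher in EVs and miR-301a-3p was lower, at 1 count in EVs and 185 in hippocampus, a ratio of 49.5 (exact 95% interval 8.77 to 1965).

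Short letter runs that have been linked to sorting of miRNAs into EVs of other cells were counted in the mature sequences, on the RNA strand itself. GGAG was present in 8 of 173 miRNAs that were higher in EVs (4.62%), in 23 of 222 that were lower (10.4%) and in 40 of 478 tested (8.37%). CCCU was present in 8 of 173 (4.62%), 18 of 222 (8.11%) and 35 of 478 (7.32%), CAGU in 31 (17.9%), 22 (9.91%) and 75 (15.7%), and CGGGAG in 0 of the 478. CAGU is part of the seed of the miR-148 and miR-152 family. A first base U was found in 49.1% of the higher, 38.3% of the lower and 43.3% of all tested, and the median GC share was 45.5%, 47.8% and 46.6%. These are descriptions of letters in EV and tissue miRNAs, related family members share them, and nothing follows from them about a sorting factor.

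The ratio of the 5p to the 3p arm within a library does not depend on how libraries are scaled. It was tested with limma on log2 ratios (0.5 counts added to each arm) in 123 hairpins with at least 10 CPM of an arm in each group. The ratio differed in 79 of 123 (64.2%, adjusted p under 0.05), the 5p arm having the larger share in EVs in 36 and the smaller share in 43. In 12 of the 79 the dominant arm was not the same in HFD EVs and HFD hippocampus. Leaving out both libraries that stand apart gave 59 calls.

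miR-335 was the clearest case. Its 5p arm made up 92.8, 92.6 and 92.6 percent of the hairpin's counts in the EV libraries and 25.02, 30.5 and 31.6 percent in the hippocampus libraries, a difference in log2 ratio of 4.96 (SE 0.22, limma adjusted p = 3.04e-05). The hairpin lies in an intron of Mest at chr6:30741299-30741396. In levels, miR-335-5p was higher in EVs while miR-335-3p stood at 98.8, 99.9 and 119 CPM in EVs and 198, 162 and 134 CPM in hippocampus, a log2 fold change of -0.64 (edgeR's quasi-likelihood test, adjusted p = 0.0437) that turned to 0.09 with libraries thinned to the smallest total.

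miR-145a, made in smooth muscle, had 17.01, 21.2 and 15.2 percent 5p in EVs and 80.3, 87.98 and 88.99 percent in hippocampus (difference -4.86, SE 0.34, limma adjusted p = 1.14e-04). Its 3p arm was higher in EVs, at 993, 724 and 867 CPM in EVs and 21.96, 20.6 and 17.7 CPM in hippocampus, whereas the 5p arm had a log2 fold change of 0.53 that did not pass. The 5p arm is the one usually taken as the guide, so the EV libraries held mostly the other arm. miR-345 (16.7, 6.45 and 14.7 percent 5p in EVs, 56.3, 56.5 and 53.4 percent in hippocampus) and miR-369 (46.6, 24.1 and 12.7 and 74.8, 69.5 and 71.3 percent) also held less of the 5p arm in EVs. miR-28a (36.2, 35.7 and 39.6 and 64.6, 55.7 and 60.4 percent) and miR-132 (40.5, 45.4 and 24.1 and 60.2, 60.8 and 62.4 percent) went the same way by less, and the call of miR-132 ended without any 1 of the hippocampus libraries (limma adjusted p between 0.0519 and 0.0631). miR-664 (47.4, 55.6 and 64.7 percent 5p in EVs, 15.03, 12.4 and 16.2 percent in hippocampus), miR-671 (48.3, 72.00 and 62.5 and 22.7, 26.3 and 24.1 percent) and miR-574 (50.8, 48.9 and 68.3 and 23.4, 25.5 and 20.4 percent) held more of the 5p arm in EVs. The smaller arm had as few as 4 counts in an EV library for miR-345, 7 for miR-369 and 9 for miR-671. The call of miR-574 ended with libraries thinned to the smallest total (difference 1.32, limma adjusted p = 0.0575). EV libraries of miR-664, miR-671 and miR-574 lay on both sides of 50%, so the EV libraries did not all have the same dominant arm.

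The remaining hairpins of the 12 are those with a hairpin on the opposite strand. miR-136 had 57.2, 61.3 and 60.2 percent 5p in EVs and 11.3, 12.5 and 11.6 percent in hippocampus (difference 3.46, SE 0.20, limma adjusted p = 6.49e-05). miR-3071 lies antisense to miR-136 within an exon of Rtl1. It had 35.9, 32.00 and 33.2 percent 5p in EVs and 81.7, 79.9 and 79.98 percent in hippocampus (difference -3.02), in the opposite direction. miR-3071-5p had 260, 64 and 77 counts in EV libraries 1 to 3 and 36903, 36229 and 39213 in hippocampus libraries 1 to 3. miR-136-3p was close to it, at 267, 65 and 84 and 37697, 36973 and 40072 counts. The ratios of miR-136 and miR-3071 are therefore not separate measurements. miR-9 had 45.1, 60.1 and 23.7 percent 5p in EVs and 98.5, 98.3 and 98.1 percent in hippocampus (difference -6.30, SE 0.58, limma adjusted p = 2.79e-04). Its opposite-strand partner miR-9b had 19.96, 9.36 and 17.02 and 0.0495, 0.0428 and 0.0598 percent. As miR-9b-3p repeats the counts of miR-9-5p, the ratios of miR-9 and miR-9b are not separate measurements either. Of the 123 hairpins, 11 have an annotated hairpin on the opposite strand, and 9 of these were called. Among the other 112, 70 were called, and with them fitted alone 69 were.

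Arms of miR-136 and miR-3071 are shown because they line up across strands in the same way (RefSeq, GRCm38.p6; 5′ to 3′, seed in capitals), and those of miR-335 because its ratio differed most among hairpins with no opposite-strand partner.
miR-136-5p: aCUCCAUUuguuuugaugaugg
miR-136-3p: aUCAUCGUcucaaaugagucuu
miR-3071-5p: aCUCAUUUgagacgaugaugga
miR-3071-3p: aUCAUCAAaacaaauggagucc
miR-335-5p: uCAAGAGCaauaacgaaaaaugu
miR-335-3p: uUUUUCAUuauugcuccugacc

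**Figure D4:**
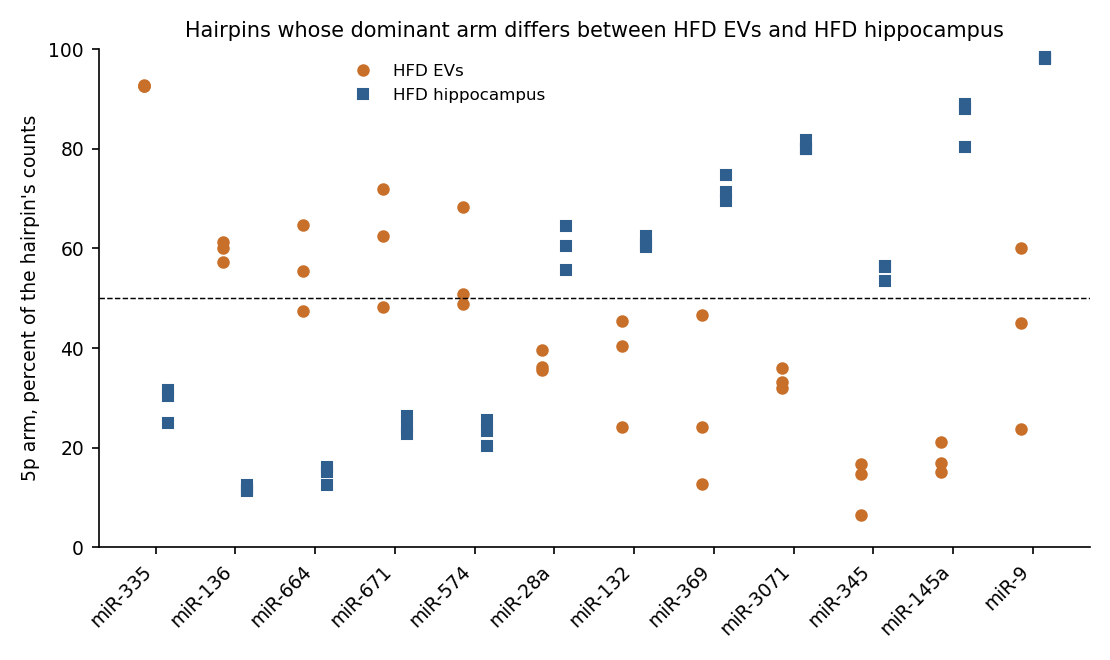
Share of the 5p arm among a hairpin's counts (vertical axis, percent) for the 12 hairpins whose dominant arm differed, 1 point per library (orange circles, HFD EVs; blue squares, HFD hippocampus), with a dashed line at 50%. miR-335 sits between 92.6% and 92.8% in EV libraries and between 25.02% and 31.6% in hippocampus, and miR-9 lies between 23.7% and 60.1% in EVs and above 98% in hippocampus.

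Among the 10 largest differences that kept the same dominant arm, miR-378a had 0.117, 0.0717 and 0.0309 percent 5p in EVs and 1.302, 1.46 and 1.51 percent in hippocampus (difference -4.45, SE 0.48). miR-409, of the Dlk1-Dio3 region, had 3.05, 3.42 and 3.97 percent in EVs and 29.9, 44.1 and 40.04 percent in hippocampus (difference -3.96). Both rest on few counts of the 5p arm in EVs, with 49, 14 and 8 for miR-378a and 11, 4 and 5 for miR-409. Those of let-7i, miR-99a and miR-341 also rest on few counts of the minor arm in EVs, with at most 18 in a library, and the call of miR-99a ended without both libraries that stand apart (limma adjusted p = 0.0684). miR-467a-5p shares its counts with miR-467b-5p, so its ratio is uncertain.

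Whether the EV to hippocampus difference was the same on chow was tested with all 12 libraries in 1 edgeR fit of 519 miRNAs, whose CPM scale is not that of the 6-library fit. The chow hippocampus libraries are the columns headed LFD, an assignment inferred from the diets and numbers, and every statement on chow rests on it. The chow EV libraries held 2294878, 2225806 and 2120171 counts and the chow hippocampus libraries 4094591, 5723918 and 2331091. Every chow hippocampus library was shallower than every HFD hippocampus library, so depth and diet cannot be told apart there. The chow contrast was not run with thinned libraries. The difference itself differed for 30 of 519 miRNAs (5.78%), 25 with a higher and 5 with a lower log2 fold change on HFD. Most calls were shared: 162 were higher in EVs on both diets and 206 lower on both, and 3 were higher on HFD and lower on chow, namely miR-30b-3p, miR-690 and miR-8120. Of these 3, the test of the difference did not call miR-8120 (adjusted p = 0.0673).

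miR-146a-5p was higher in EVs on both diets but by more on HFD. In this fit it had 15783, 15409.8 and 10357 CPM in HFD EVs and 64.5, 71.6 and 61.9 CPM in HFD hippocampus, and 4747, 6146 and 5752 CPM in chow EVs and 179, 140.2 and 141 CPM in chow hippocampus. Its log2 fold change was 7.71 on HFD and 5.18 on chow, a difference of 2.54 (SE 0.37, edgeR's quasi-likelihood test, adjusted p = 0.00108). Both sides moved apart, the EV values being higher and the hippocampus values lower on HFD. The difference was called larger on HFD for 7 of the 12 tested immune cell miRNAs and smaller for 0, and 5 were not called, among them miR-155-5p and miR-146b-5p. Besides miR-146a-5p the 7 were miR-342-3p (difference 3.15), miR-223-3p (5.81), miR-142a-5p (3.03), miR-142a-3p (3.33), miR-223-5p (3.93) and miR-150-5p (2.73). miR-342-3p had a log2 fold change of 2.41 on HFD, where it was called higher in EVs. On chow its log2 fold change was -0.74, with the lower value in EVs, and did not pass (edgeR's quasi-likelihood test, adjusted p = 0.0880).

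miR-9-3p, which was lower in EVs on both diets, was so by less on HFD. It had 849, 871 and 676 CPM in HFD EVs and 2860.1, 3181 and 3224 CPM in HFD hippocampus, and 62.1, 47.3 and 110.2 CPM in chow EVs and 1455, 2699 and 2259.7 CPM in chow hippocampus (difference 2.92, SE 0.48, adjusted p = 0.00242). The HFD EV libraries stood far above the chow EV libraries, while hippocampus libraries of both diets lay closer together. miR-30b-3p had 35.1, 37.8 and 33.4 CPM in HFD EVs and 11.95, 11.9 and 9.83 CPM in HFD hippocampus, against 11.4, 9.18 and 7.87 CPM in chow EVs and 21.2, 25.8 and 19.1 CPM in chow hippocampus (difference 2.87, SE 0.49, adjusted p = 0.00242). Its order was therefore turned round between the diets.

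miR-467e-5p had the smallest p of the difference (adjusted p = 3.89e-05). It had 15.6, 25.8 and 12.9 CPM in HFD EVs and no count in HFD hippocampus, at least 203-fold higher in HFD EVs, and 6.73, 10.6 and 11.5 CPM in chow EVs against 4.98, 5.66 and 8.17 CPM in chow hippocampus. The 12-library difference of 9.11 is a fitted value that depends on the 0 counts and is no bound. miR-3470a had 16.8, 25.8 and 50.03 CPM in HFD EVs and 1.24, 1.12 and 1.45 CPM in HFD hippocampus, and 31.05, 34.4 and 32.2 CPM in chow EVs and 42.7, 58.8 and 8.95 CPM in chow hippocampus (difference 4.75, adjusted p = 0.00242). For both, every hippocampus value was lower on HFD than on chow, and the EV values of miR-467e-5p were higher on HFD while those of miR-3470a overlapped. Among abundant miRNAs, miR-21a-5p (difference 1.80, adjusted p = 0.00735) and let-7f-5p (1.98, adjusted p = 0.00735) had a larger EV excess on HFD, and miR-126a-3p (-1.47, adjusted p = 0.0228) a larger deficit. The count of differences is less settled than the calls on HFD alone: it was 76 with DESeq2 and 15 without HFD EV library 2.

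**Figure D5:**
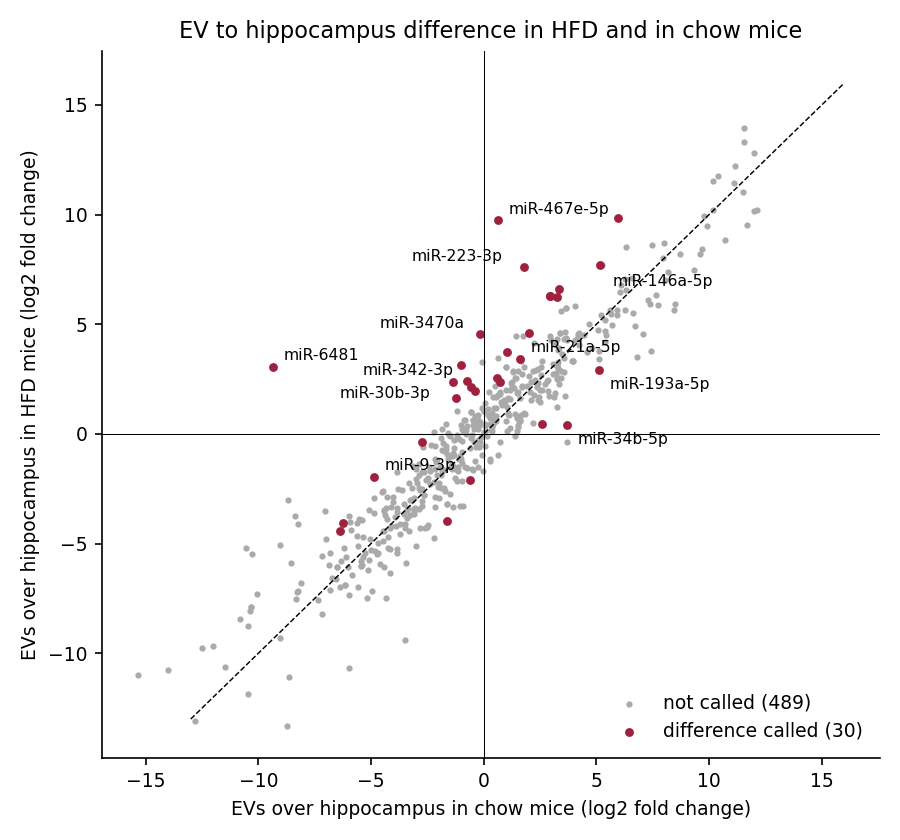
Log2 fold change of EVs over hippocampus in HFD mice (vertical axis) against that in chow mice (horizontal axis) for 519 miRNAs in the fit of all 12 libraries, with a dashed line of equality. The 30 miRNAs whose difference was called (red) include miR-146a-5p and miR-9-3p above the line and miR-34b-5p and miR-193a-5p below it, and 489 (grey) were not called.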

How the data were processed

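Small RNA libraries of adipose EVs and hippocampus were compared in HFD mice. Per the labels, RNA was taken with Trizol. The authors deposited raw counts per mature miRNA in 1 set for EVs and 1 for hippocampus. Per the submitters' processing notes Bowtie was used; its version, the annotation, the counting rule and strand use are not stated in those sources. The 852 names listed in both sets were kept, with library totals from each whole set. The 1 further HFD column, which matches no sample, and names blank in HFD hippocampus were left out.

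Counts were tested with edgeR 4.0.16 in R 4.3.3 (TMM, filterByExpr with a minimum count of 10, robust quasi-likelihood F test, two-sided, Benjamini-Hochberg adjusted p under 0.05 over all tested), and log2 arm ratios with limma 3.58.1. CPM were computed here on the TMM scale. The chow contrast used all 12 libraries. The count and arm ratio tests were tried on simulated data. The simulated counts held fewer and smaller changes than those called here, balanced up and down. They therefore cannot show how TMM scaling or the tests perform on differences as many and as large as these. Alternatives were DESeq2 1.42.0, limma-voom, library totals, no filter, thinned libraries, a replicate block and leaving out libraries. Named miRNAs were the 10 most abundant of each group, the 15 largest differences each way, the 6 most abundant that were not called, those at 0 in 1 group, up to 4 per list, and the leading arm ratios and chow differences. Values of others were added after they were seen. Members and lists were chosen with earlier results of these data known. Intervals and floors cover counting error only. Hairpin places are on GRCm38.p6.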

Additional observations from a re-analysis of the deposited data

Results flagged for a closer look

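For the following miRNAs the test of the difference itself found that the EV to hippocampus log2 fold change was not the same on HFD as on chow (edgeR's quasi-likelihood test over 519 miRNAs, adjusted p under 0.05; values are HFD minus chow). The chow hippocampus libraries are the columns headed LFD, an inference, and all were shallower than the HFD hippocampus libraries. Of immune cell miRNAs, miR-146a-5p differed by 2.54, miR-142a-5p by 3.03, miR-223-5p by 3.93 and miR-342-3p by 3.15. The EV excess of let-7f-5p was larger by 1.98 and that of miR-21a-5p by 1.80. miR-30b-3p differed by 2.87, miR-3470a by 4.75, miR-9-3p by 2.92 and miR-181a-1-3p by 1.94. miR-467e-5p differed by 9.11, a fitted value that rests on 0 counts in HFD hippocampus. The endothelial miR-126a-3p differed by -1.47 and its opposite-strand neighbour miR-126b-5p by -2.13.

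Names listed in 1 of the sets enter no comparison. Of those in the EV set, miR-743b-3p, of the X-linked testis cluster, had 851 counts over the 3 HFD EV libraries, and 46 predicted miRNAs had 363 counts in all. Of those in the hippocampus set, miR-384-3p, the other arm of miR-384-5p, had 4983 counts over the 3 HFD hippocampus libraries.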

How the results depend on the processing

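The numbers of miRNAs called higher and lower on HFD stayed within 1.5 times under every setting run: 203 and 256 with library totals, 206 and 255 with DESeq2, 231 and 279 with no filter, 209 and 190 with thinned libraries, and 194 to 225 and 237 to 259 when 1 library was left out. Arm ratio calls ranged from 58 to 83 without 1 library. Chow differences numbered 76 with DESeq2 and 15 to 42 without 1 library, 15 being without HFD EV library 2. List medians were less steady. Of the 24, 19 moved under at least 1 setting by more than the spread of the list's median level among libraries. Of 119 miRNA log2 fold changes followed, 106 were called at first. The calls of 9 ended under some other setting, and 11 were called under some other setting only.

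Deviations from the group means correlated at 0.0848, 0.0538 and -0.0543 between EV and hippocampus libraries of the same number. For unlike numbers the correlations were -0.123 to 0.0719. Such values cannot tell whether libraries of the same number share an animal, which the labels do not give. With replicate numbers as a block, 198 were higher, 242 lower, 67 arm ratios and 27 chow differences were called.

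Log2 fold changes near 0 turned sign, and the cause was not tested. With no filter let-7i-5p was at -0.0129, miR-27b-3p -0.32, miR-22-3p -0.0942, miR-340-5p -0.16, miR-126b-5p -0.0208, miR-93-5p -0.12 and miR-222-3p -0.18. miR-27b-3p was at -0.0521 with library totals and -0.0617 with DESeq2. With all 12 libraries miR-148b-3p was at 0.086 and miR-29b-3p at 0.13. With libraries thinned and scaled by TMM miR-148b-3p was at 0.57, miR-29b-3p 0.60, miR-29c-3p 0.0747, miR-221-5p 0.0318 and the median of the miR-99, miR-100 and miR-125 list 0.59. Over the 449 miRNAs tested at both depths the median was -0.27 at full depth and 0.38 thinned. With thinned libraries scaled by totals it was -0.40. TMM factors after thinning were 0.689 to 0.815 in EVs and 1.21 to 1.37 in hippocampus. At full depth they were 0.838 to 1.14 and 0.941 to 1.09. Without 1 library the ranges were -0.012 to 0.38 for let-7i-5p, -0.30 to 0.0782 for miR-27b-3p, -0.24 to 0.38 for miR-22-3p, -0.017 to 0.17 for miR-340-5p, -0.0055 to 0.45 for let-7b-5p, -0.29 to 0.54 for miR-126b-5p, -0.10 to 0.25 for miR-93-5p and -0.21 to 0.26 for miR-222-3p. At the depth of the EV libraries, 3 counts correspond to 0.505 to 1.64 CPM, and levels below that rest on 1 or 2 counts.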

Other observations

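Further names of the EV set alone included miR-471-5p, of the same X-linked cluster as miR-743b-3p, with 190, 105 and 235 counts in HFD EV libraries 1 to 3. Names of the hippocampus set alone included miR-383-5p, with 1740, 1558 and 1555 counts in HFD hippocampus libraries 1 to 3. miR-124-5p, the minor arm of the neuronal miR-124, had 1440, 1481 and 1500 counts there. A name missing from 1 set was not taken as 0 in it.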
